A study of Mus musculus with 4 samples.

Results

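Cells detect foreign or misplaced nucleic acid with a small set of receptors. RIG-I, MDA5 and LGP2 are related helicases that bind double-stranded RNA in the cytosol, and the first 2 of them signal through the mitochondrial adaptor MAVS. ZBP1 binds Z-form nucleic acid, TLR3 reads double-stranded RNA in endosomes, and the kinase PKR answers double-stranded RNA by phosphorylating the translation factor eIF2α. PARP9 and its E3 ubiquitin ligase partner DTX3L act as a complex, and PARP14 is a related mono-ADP-ribosyltransferase. Many of these genes are themselves interferon-stimulated, so their transcripts rise where interferon or IRF signalling is active. The 10 genes Ddx58 (RIG-I), Ifih1 (MDA5), Dhx58 (LGP2), Zbp1, Tlr3, Eif2ak2 (PKR), Parp9, Parp14, Dtx3l and Mavs were followed here. They were chosen by name, as the probe sets that carry 1 of these symbols and no other in the platform annotation. These were 21 of 45037 probe sets, and 10 of 18193 genes with a symbol of their own.

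The cells were immortalized mouse brown preadipocytes, the precursors of brown fat cells, of a mixed C57/BL6-129 strain. All 4 arrays came from cells labelled G9af/f, that is, with floxed alleles of Ehmt2, which encodes G9a, an enzyme that methylates histone H3 at lysine 9. The Vec group is labelled wild type, and the Cre group is labelled G9a knock out. Each group held 2 arrays, with replicate numbers 1 and 2, and total RNA was measured on Affymetrix mouse arrays. The design asks which transcripts change when G9a is lost. No Cre cells without floxed alleles were among the 4 arrays, so Cre itself and the loss of G9a cannot be told apart. The labels do not name the promoter that drove Cre, say whether a line was a clone, or say whether a group's arrays are separate cultures. Sex-linked transcripts differed between numbers 1 and 2 in both groups (values under processing), so a group's 2 arrays did not hold the same cells. The p-values measure only the spread between these arrays. The authors deposited 1 MAS5 signal per probe set and array, on a linear scale. Precision is limited by there being only 4 arrays.

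Array medians lay between 50.6 and 78 signal units, and the 3′ to 5′ ratio of the beta-actin control probe sets between 1.08 and 1.23, highest in Cre 1. Ehmt2 read 2682 and 2688 in Vec 1 and 2 and 953 and 912 in Cre 1 and 2, a difference of -1.49 ± 0.20 (SE, n = 2 against 2; limma adjusted p = 0.227 without and 0.000281 with the replicate number as a block). The targeted transcript was lower in both Cre arrays. The deleted exons are not named in the labels. All 7 preadipocyte and mesenchymal markers with a probe set passed the level filter, 3 with a positive and 4 with a negative difference (median -0.17), and none was called in either model. Vim lay between 19767 and 22803 and Pdgfrb between 3123 and 5669 on the 4 arrays. Dlk1, a preadipocyte marker, read 5421 and 5238 in Vec and 1690 and 4882 in Cre, Pdgfra 248 and 81.7 in Vec and 106 and 59.1 in Cre, and Cd34 between 68.7 and 151. These last 3 and Cd44 were lower in Cre within both numbers, Dlk1 by far more in number 1, and Pdgfrb was higher in both. Thy1 read 437 and 2973.5 in Vec 1 and 2 and 526 and 2500 in Cre 1 and 2, so it differed mainly between the numbers. With the block 1 marker was higher and 2 were lower at an unadjusted limma p below 0.05, against 1202 and 834 of all 11079 genes tested. The part of these shifts in the results below was not tested. The 5 mature brown adipocyte markers with a probe set, among them Ucp1 and Adipoq, were all below the level filter described in the next paragraph. The median absolute log2 difference over probe sets was 0.29 between the Vec arrays and 0.31 between the Cre arrays, and 0.24 and 0.21 between Cre and Vec within numbers 1 and 2.

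Differences were taken as Cre minus Vec on the scale log2(signal + 16) after quantile normalization between arrays, and folds are on that scale, which understates changes of dim genes. Probe sets were tested with limma if their mean log2 signal reached the 50th percentile of 6.26. Of the 21 probe sets 13 passed, and 8 of the 10 genes had at least 1 of them. No probe set of Dhx58 or Zbp1 passed. Tlr3 and Parp14 passed on the mean of all arrays while their Vec means alone lay below that level, as was the case for the second Ddx58 probe set (1456890_at), so counts over the 8 genes and the 13 probe sets describe them and support nothing further. A gene with several tested probe sets is represented by the brightest. Values after ± are SEs from the model without the replicate block.

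RefSeq promoter sequences (GRCm38.p6), which run from 250 bases before to 50 bases after the annotated start, were on hand for 6 of the 10 genes. They were searched on both strands for the core of the interferon-stimulated response element, GAAANNGAAA, the element bound by IRF proteins, and for the gamma-activated sequence TTCNNNGAA, bound by STAT dimers. The first was in the entries of Ddx58, Ifih1 and Eif2ak2, 3 of 6, against 3.44% of all 32851 entries. It lay from base 3 to base 12 after the start in Ddx58 (on the opposite strand), from 33 to 42 in Ifih1 and from 19 to 28 in Eif2ak2. The second was in 1 of the 6 entries, that of Eif2ak2, against 8.3% of all entries, and did not overlap the first. Entries of Tlr3, Dtx3l and Mavs held neither. The 3 windows of 30 bases around the response element core are shown because these genes differ in how they moved below, with the match in capitals, read 5′ to 3′ on the gene's strand. They lie on the minus strand at chr4:40239804-40239833 (Ddx58), chr2:62646206-62646235 (Ifih1) and chr17:78882535-78882564 (Eif2ak2). The 250 bases before the start of Dtx3l (minus strand, chr16:35939028-35939277) follow as an example without a match. They are no contrast to the 3 windows, since the 250 bases before the start of Ddx58, Ifih1 and Eif2ak2 held no response element core either. The 50 bases after the start of Dtx3l, which are not shown, held no match. A match of letters is a description and does not show that a factor binds there.
Ddx58: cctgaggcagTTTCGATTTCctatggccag
Ifih1: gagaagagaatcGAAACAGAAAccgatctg
Eif2ak2: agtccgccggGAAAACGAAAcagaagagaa
Dtx3l: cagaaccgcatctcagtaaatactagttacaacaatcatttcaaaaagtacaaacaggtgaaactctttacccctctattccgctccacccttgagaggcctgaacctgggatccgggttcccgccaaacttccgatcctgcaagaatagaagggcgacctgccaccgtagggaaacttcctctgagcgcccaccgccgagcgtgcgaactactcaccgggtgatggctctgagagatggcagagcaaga

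**Figure D1:**
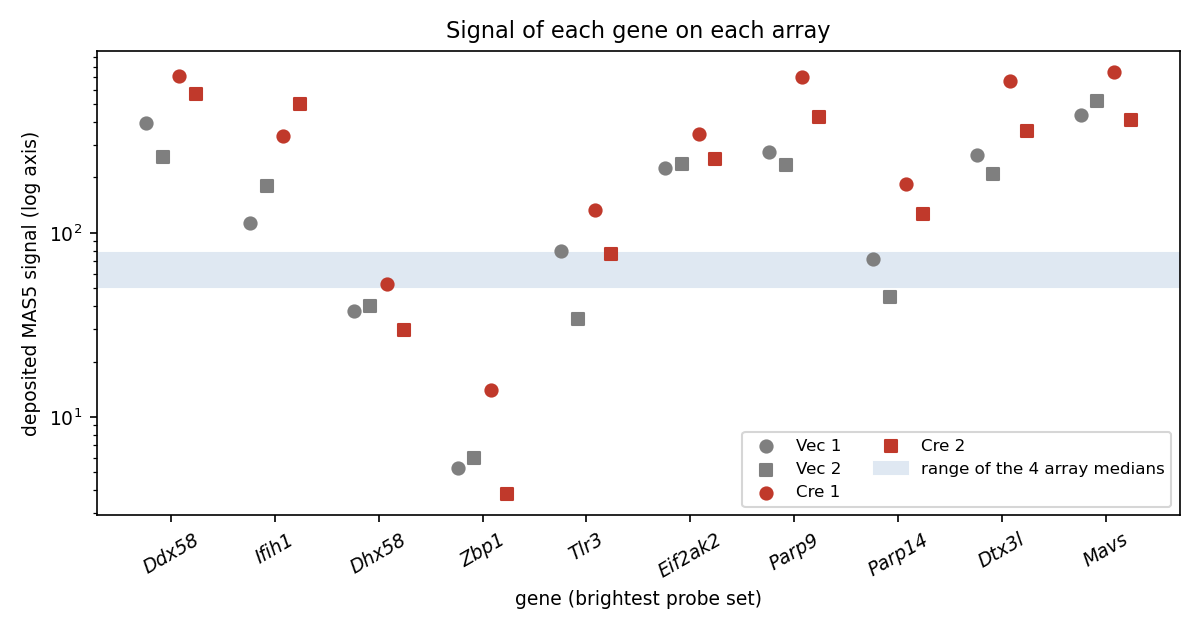
Deposited MAS5 signal (log axis) of the brightest probe set of each of the 10 genes on the 4 arrays, with grey for Vec, red for Cre, circles for replicate number 1 and squares for number 2; the blue band spans the 4 array medians, 50.6 to 78. Both Cre points lie above both Vec points for Ddx58, Ifih1, Eif2ak2, Parp9, Parp14 and Dtx3l, while Zbp1 lies below the band on every array and Dhx58 within it or below. Levels of different genes come from different probes and are not comparable.

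All 8 tested genes had a positive difference, with a median of 0.96 on the log2 scale against 0.0073 over all 11079 genes tested. The differences ran from 0.24 for Mavs to 1.37 for Ifih1. In 7 of the 8, both Cre arrays lay above both Vec arrays after normalization, a pattern that 17.5% of all genes showed. In the same 7, Cre was higher within both replicate numbers, against 32.8% of all genes, and in 5 it was at least 1.5-fold higher within both, against 3.8%. Without the replicate number in the model 0 of the 8 genes passed a limma adjusted p of 0.05, as did 0 of all genes (0% higher and 0% lower), and 5 of the 8 had an unadjusted p below it, against 3.8% of all genes that were higher at that p. With the replicate number as a block 5 genes rose, namely Ddx58, Ifih1, Parp9, Parp14 and Dtx3l, and none of the 8 fell. Of these, Parp14 was tested only through its higher Cre arrays, since its Vec mean alone lay below the level filter. In that model 3.25% of all genes rose and 0.984% fell. Of the 13 tested probe sets of these genes, 5 rose in the paired model and 0 fell, against 2.29% and 0.853% of all probe sets, and without the block 0 passed, against 0.00888% higher and 0% lower. In 11 of the 13 the Cre arrays lay above the Vec arrays without overlap, against 14.2%, and in 11 Cre was higher within both numbers, against 27.9%. In bulk RNA such as this, a change in the share of cells that express a gene and a change in RNA per cell cannot be told apart.

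The paired calls had limits. The replicate block leaves 1 residual degree of freedom, and none of the 5 passed when the block was fitted without the intensity trend (limma adjusted p from 0.0627 to 0.184) or without the level filter (0.085 to 0.259). With 2 arrays on each side, the smallest two-sided p that exact permutation allows is 0.333. With median centring 56.3% of the paired model's calls over all probe sets were higher in Cre, against 72.9% with quantile normalization, and the same 5 genes rose.

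Ifih1 encodes MDA5, the sensor of long double-stranded RNA, and had the largest difference of the 8 tested genes. Its only probe set (1426276_at) read 113 and 179 in Vec 1 and 2 and 337 and 502 in Cre 1 and 2. Both Cre arrays lay above both Vec arrays, and array 2 was the higher one in each group. The difference was 1.37 ± 0.40 (SE, n = 2 against 2; 95% interval 0.39 to 2.35), a 2.58-fold higher level in Cre, with 1.43 within number 1 and 1.30 within number 2. The limma adjusted p was 0.865 without the block. With it the SE was 0.20 and the limma adjusted p 0.00442, so Ifih1 rose in the paired model. Number 2 exceeded number 1 by 0.88 in Vec and by 0.75 in Cre, and the model without the block counts this as spread. Of all genes tested, 98.9% had a smaller difference.

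Ddx58, which encodes RIG-I, the sensor of RNA with a 5′ triphosphate, read 396 and 257 in Vec and 709.5 and 568 in Cre on its brightest probe set (1436562_at). The groups did not overlap, and the lower Cre array exceeded the higher Vec array. The difference was 0.94 ± 0.26 (SE, n = 2 against 2), or 1.91-fold, with 0.86 and 1.02 within numbers 1 and 2. Its limma adjusted p was 0.779 without the block and 0.0188 with it. A second probe set (1456890_at), which passed the filter only through its Cre arrays and lay close to the array medians at 48 and 52.2 in Vec and 90.1 and 82.3 in Cre, was 0.50 ± 0.32 higher, which neither model called (limma adjusted p = 0.999 and 0.434). The third (1446457_at) lay below the filter, at 14.4 and 24.6 in Vec and 40.2 and 27 in Cre. It was 0.36 higher, with 0.65 and 0.06 within numbers 1 and 2.

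Dhx58 encodes LGP2, the helicase of this family without signalling domains of its own, and none of its probe sets reached the level filter. The brightest of its 3 probe sets (1420769_at) read 37.8 and 40.3 in Vec and 52.7 and 29.8 in Cre, all below the array medians. Within the replicate numbers its probe sets went in opposite directions, higher by 0.13 to 0.52 in number 1 and lower, at -0.10 to -0.98, in number 2. Zbp1 also lay below the filter, at 5.3 and 6 in Vec and 14 and 3.8 in Cre on the brighter of its 2 probe sets (1419604_at). For both genes the groups overlapped and no difference was detectable at these signals, which does not show that the transcripts are absent.

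Tlr3, the endosomal receptor for double-stranded RNA, read 80 and 34.2 in Vec and 132.5 and 76.9 in Cre on the brighter probe set (1422782_s_at), whose suffix marks probes that can match several transcripts. As deposited, Cre 2 lay just under Vec 1, while after normalization the groups did not overlap. The difference was 0.69 ± 0.34 (SE, n = 2 against 2; 95% interval -0.14 to 1.52), with 0.53 and 0.85 within numbers 1 and 2, and did not pass in either model (limma adjusted p = 0.999 without the block and 0.262 with it). The other probe set (1422781_at), below the filter, read 39.1 and 28.2 in Vec and 59.6 and 33.6 in Cre and was 0.19 higher.

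Eif2ak2, the gene of the RNA-activated kinase PKR, showed a small difference that no model called. Its brightest probe set (1422006_at) read 224 and 237 in Vec and 345 and 251.5 in Cre, so Cre 1 stood apart and Cre 2 was close to both Vec arrays. The difference was 0.30 ± 0.26 (SE, n = 2 against 2; 95% interval -0.32 to 0.92), with 0.56 in number 1 and 0.04 in number 2 (limma adjusted p = 0.999, and 0.547 with the block). The 2 further probe sets of Eif2ak2 differed by 0.34 ± 0.24 and -0.17 ± 0.38. Its promoter window carries the response element core shown above, as do those of Ddx58 and Ifih1, which rose in the paired model.

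Mavs, the adaptor on which RIG-I and MDA5 converge, was bright and differed in opposite directions within the replicate numbers. Its brighter probe set (1451176_at) read 434 and 521 in Vec and 748 and 411 in Cre, so that Cre was 0.81 higher in number 1 and lower in number 2, at -0.32. The mean difference was 0.24 ± 0.33 (95% interval -0.56 to 1.05; limma adjusted p = 0.999, and 0.693 with the block). The other probe set (1439185_x_at, open to cross-hybridization by its suffix) read 290 and 238 in Vec and 318 and 341 in Cre and was 0.26 ± 0.25 higher, with 0.07 and 0.44 within numbers 1 and 2. The probe sets thus disagreed on which replicate number had the larger difference.

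**Figure D2:**
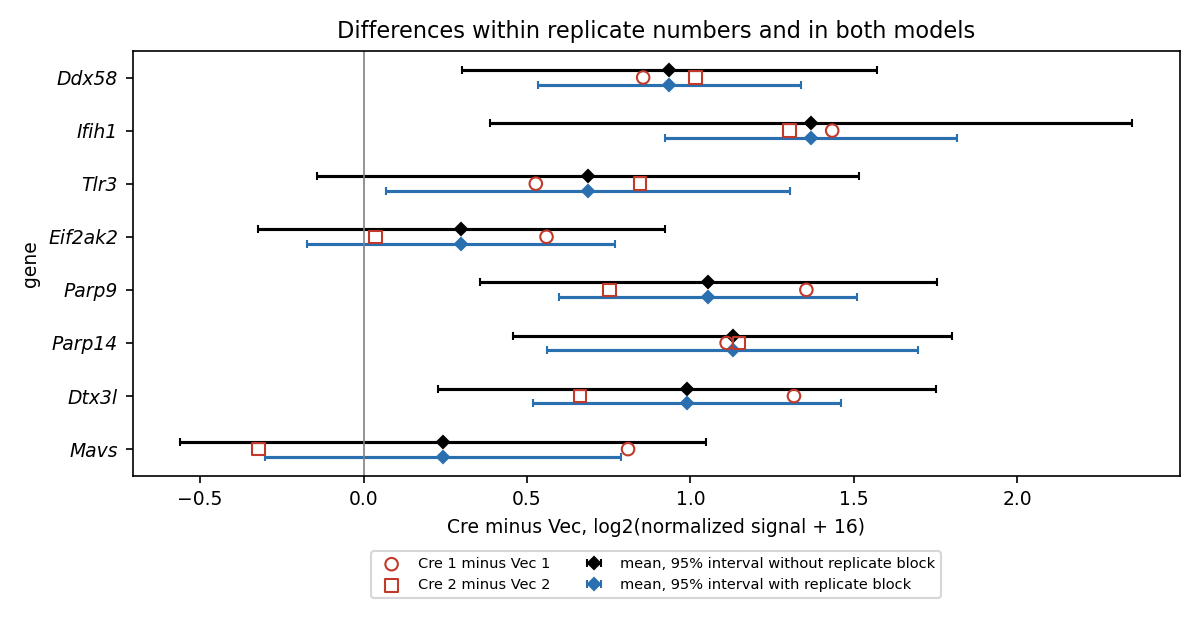
Cre minus Vec on the log2(normalized signal + 16) scale for the 8 tested genes, with open circles for replicate number 1, open squares for number 2, and diamonds for the mean with its 95% interval from limma without (black) and with (blue) the replicate block. Both open symbols lie above 0 for every gene but Mavs, whose number 2 value is -0.32; the interval narrows most for Ifih1, from 0.39 to 2.35 without the block to 0.92 to 1.82 with it.

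Parp9, Dtx3l and Parp14 are neighbours on mouse chromosome 16, in the order Parp14, Dtx3l, Parp9 with no other protein-coding gene between them. PARP9 binds DTX3L and modifies ubiquitin, and DTX3L is the ligase of the pair. Parp9 (1416897_at) read 275 and 232 in Vec and 704 and 423 in Cre, without overlap. It was 1.05 ± 0.29 higher (SE, n = 2 against 2; 95% interval 0.36 to 1.75), or 2.08-fold, with 1.36 and 0.75 within numbers 1 and 2. Its limma adjusted p was 0.772 without the block and 0.0196 with it. Dtx3l (1435208_at) read 266 and 209.6 in Vec and 664 and 357 in Cre, the same layout of the 4 arrays. It was 0.99 ± 0.31 higher, or 1.99-fold, with 1.32 and 0.66 within numbers 1 and 2, and its limma adjusted p was 0.925 without the block and 0.0313 with it. A dimmer Dtx3l probe set (1439825_at) read 111 and 86 in Vec and 212 and 112 in Cre and did not pass in either model (0.54 ± 0.29; limma adjusted p = 0.999 and 0.335).

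Parp14 (1451564_at) read 72 and 44.6 in Vec and 183 and 126 in Cre, so that both Vec arrays were near the array medians and both Cre arrays above them. The difference was 1.13 ± 0.28 (SE, n = 2 against 2; 95% interval 0.46 to 1.80), or 2.19-fold, and nearly equal within the numbers at 1.11 and 1.15. Its limma adjusted p was 0.677 without the block and 0.0408 with it, and with a pseudocount of 64 the paired call was lost (limma adjusted p = 0.0508). The second Parp14 probe set (1432548_at) read between 5.7 and 8 on every array and could show no difference.

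The 4 values of a gene, each taken relative to that gene's own mean, give a profile over the arrays. Over these 4 values the profiles of Parp9 and Dtx3l were the closest of the 28 pairs among the 8 genes, at a Euclidean distance of 0.13 log2 units, ahead of Ddx58 and Parp14 at 0.22. Ifih1 stood farthest from the others, with distances of 1.04 (to Parp14) to 1.57 (to Mavs), since it was higher in number 2 while Ddx58, Parp9, Parp14, Dtx3l and Tlr3 were lower there in both groups. Array 2 differed from array 1 by -0.38 and -0.22 for Ddx58 in Vec and Cre, by -0.0026 and -0.60 for Parp9, by -0.22 and -0.18 for Parp14 and by -0.08 and -0.74 for Dtx3l. Parp9 and Dtx3l thus differed little between the Vec arrays and more between the Cre arrays. With 4 arrays these distances describe the arrays and carry no test. The 95% intervals without the block of all 8 genes share the stretch from 0.46 to 0.92, and with the block the interval of Ifih1 (0.92 to 1.82) lay above those of Eif2ak2 (-0.17 to 0.77) and Mavs (-0.30 to 0.79). The differences between genes were not tested.

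**Figure D3:**
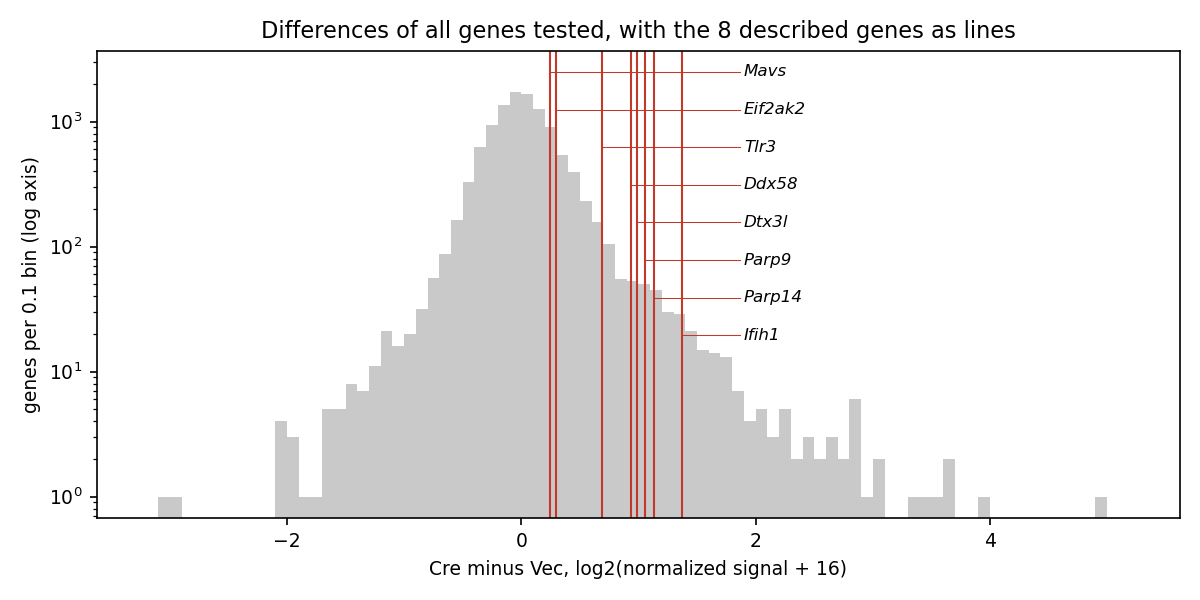
Histogram of Cre minus Vec over the 11079 genes tested (0.1 bins, log axis for the gene count), with red lines at the 8 described genes. The lines run from 0.24 (Mavs) to 1.37 (Ifih1), while the median of all genes is 0.0073.

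**Figure D4:**
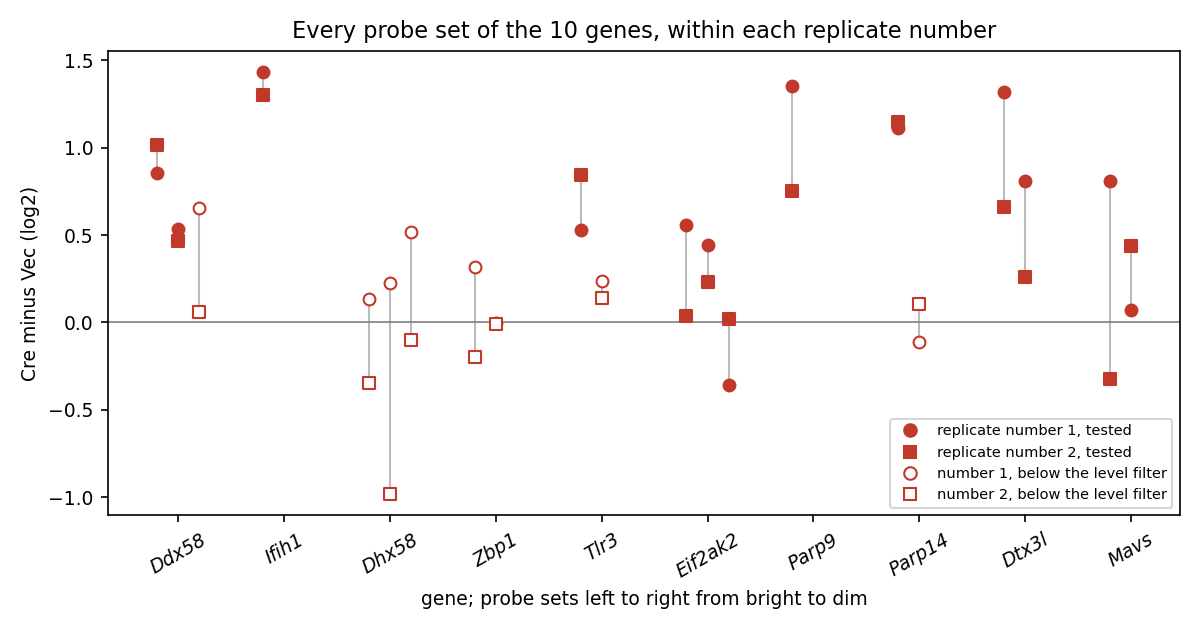
Cre minus Vec within replicate number 1 (circles) and number 2 (squares) for all 21 probe sets of the 10 genes, ordered within a gene from bright to dim; filled symbols passed the level filter and open ones did not. Of the 13 tested probe sets 11 are above 0 in both numbers, and the 3 probe sets of Dhx58 part by number.

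The 8 genes outside the group whose 4 centred values lay closest to the mean profile of the tested members were Gmds, Meox1, Nmi, Myl9, 2810039B14Rik, Tmed3, Plppr2 and Angptl6, at distances of 0.06 to 0.14 log2 units. The closest member itself, Ddx58, lay at 0.31 and ranked 114 among all genes. Gmds, a GDP-mannose dehydratase gene, read 906 and 912 in Vec and 1714 and 1372 in Cre. Nmi, which encodes an interferon-inducible partner of STAT proteins, read 189.8 and 149 in Vec and 404 and 288 in Cre. These genes outside the group lay closer to its mean profile than any of its own members. They were picked as the closest of all 11079 genes tested to an average of unlike profiles, so this is a description only.

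The other genes of these pathways were taken from 5 lists. Of 30 further sensors and cofactors, 23 were tested, 15 with a positive and 8 with a negative difference, and the median was 0.08. None passed in either model, and with the block 2 were higher and 2 lower at an unadjusted p below 0.05, as were 1202 and 834 of the 11079 genes. Without the block the smallest p belonged to Ddx21, an RNA helicase gene (-0.36 ± 0.21, SE; 2097 and 1885 in Vec, 1548 and 1499.6 in Cre), and Adar, the RNA-editing enzyme that marks self RNA (0.42 ± 0.25; 637 and 524 in Vec, 871 and 675 in Cre). With the block it belonged to Zcchc3, a cofactor gene of RNA and DNA sensing, named after its values were seen. Zcchc3 read 476 and 735 in Vec and 216 and 507 in Cre. Its difference was -0.83 (SE 0.50 without and 0.21 with the block; limma adjusted p = 0.0631 with the block). The DNA-sensing pair, chosen after its values were seen, was bright and did not pass: Cgas differed by 0.11 ± 0.28 and Sting1 by -0.31 ± 0.25. The DNA sensor Aim2 and the endosomal receptors Tlr7, Tlr8 and Tlr9 lay below the filter.

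Of 25 adaptor and kinase genes downstream of the sensors, 22 were tested, with 15 positive and 7 negative differences and a median of 0.18. None passed in either model. With the block 7 of the 22 were higher and 0 lower at an unadjusted limma p below 0.05, against 1202 and 834 of all 11079 genes. Irf7, the interferon regulatory factor that amplifies the response, came nearest, at 87.5 and 95.5 in Vec and 225 and 186 in Cre (0.97 ± 0.28; limma adjusted p = 0.811, and 0.056 with the block). Casp8, the caspase recruited by death and RNA-sensing complexes, was 0.46 ± 0.21 higher (limma adjusted p = 0.999, and 0.0986 with the block). Irf3, the factor that MAVS signalling activates first, differed by 0.19 ± 0.20. Among genes named after their values were seen, the kinase gene Ikbke read 106 and 22.1 in Vec and 217 and 79 in Cre. Its difference was 1.09 (SE 0.55 without and 0.27 with the block; limma adjusted p = 0.0617 with the block). Ripk3 and Mlkl, which act with ZBP1 in necroptosis, differed by 0.76 ± 0.73 and 0.52 ± 0.38. Ripk3 read 294 and 742 in Vec 1 and Cre 1 and 1342 and 1500.4 in Vec 2 and Cre 2, so it differed more between the numbers than between the groups.

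No interferon ligand gene reached the level filter, and 8 of the 20 ligand, receptor and kinase genes were tested, 4 with a positive and 4 with a negative difference (median 0.06). None passed in either model, and with the block 0 were higher and 0 lower at an unadjusted limma p below 0.05, against 1202 and 834 of all 11079 genes. Ifnb1, named after its value was seen, read 36.3 and 25.7 in Vec and 54.5 and 35.3 in Cre, below the filter. The subunits of the type I interferon receptor were present and differed little, Ifnar1 by -0.10 ± 0.24 and Ifnar2 by -0.0072 ± 0.21. The smallest p-values belonged to Ifngr1, a subunit of the interferon gamma receptor (0.37 ± 0.23), and Tyk2, a kinase of the type I receptor (0.36 ± 0.25).

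Of 20 other PARP and Deltex family genes 19 were tested, 11 with a positive and 8 with a negative difference and a median of 0.11. With the block 4 were higher and 2 lower at an unadjusted limma p below 0.05, against 1202 and 834 of all 11079 genes. Parp12, an interferon-stimulated mono-ADP-ribosyltransferase gene, read 682 and 395 in Vec and 1138 and 728 in Cre and was the single one that rose in the paired model (0.80 ± 0.33, with 0.79 and 0.81 within the numbers; limma adjusted p = 0.999 without the block and 0.0288 with it). Over all genes 3.25% rose in that model. Parp1, the main PARP of DNA repair, differed by -0.14 ± 0.19. Tiparp and Parp16, named after their values were seen, were lower in both numbers and did not pass, with -0.67 ± 0.35 and -0.80 ± 0.31. Of 16 genes of the eIF2 kinase and translation arm 15 were tested, 6 positive and 9 negative, with a median of -0.10 and no call in either model. With the block 1 of these 15 was higher and 0 lower at an unadjusted limma p below 0.05, against 1202 and 834 of all 11079 genes. Trib3 and Atf3, stress-response genes downstream of eIF2α phosphorylation, had the smallest p-values there without the block, with 0.46 ± 0.27 and 0.47 ± 0.29. With the block Trib3 was followed by Eif2ak3, the gene of the eIF2α kinase PERK. Its difference was 0.40 (SE 0.28 without and 0.19 with the block; limma adjusted p = 0.341 with the block).

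**Figure D5:**
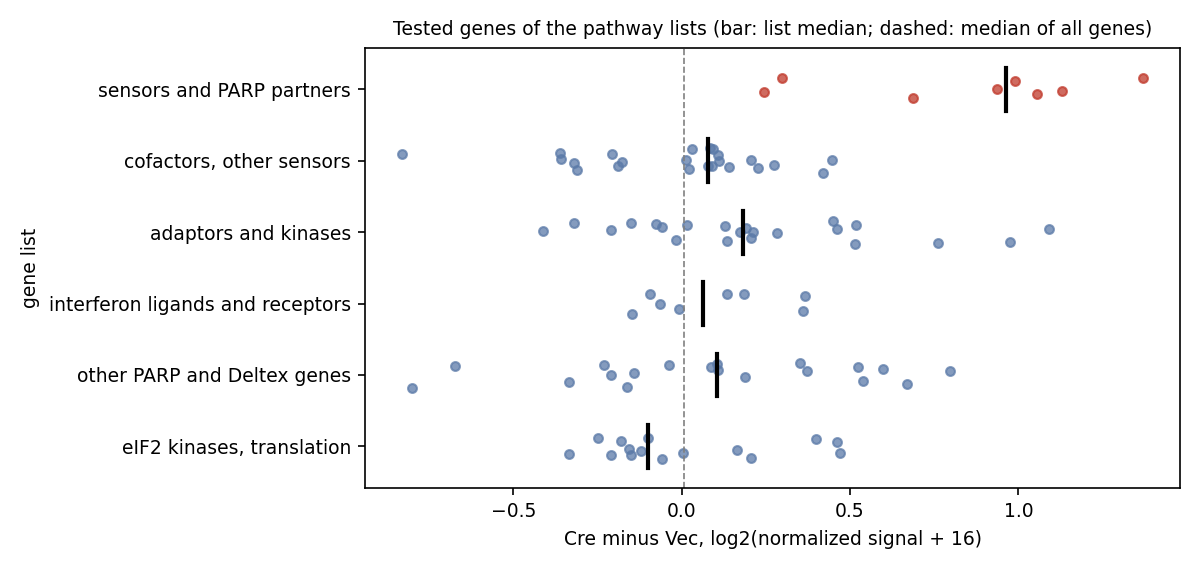
Cre minus Vec (log2 scale) of every tested gene in 6 lists, with red for the described genes, blue for the other lists, a black bar at each list's median and a dashed line at the median of all genes. The red list's median is 0.96, and the blue medians lie between -0.10 and 0.18.

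Markers of other cell types were read beside these results. Of 12 macrophage and leukocyte markers 4 were tested, and 0 passed in either model. Their summed signal was 994 and 966 in Vec 1 and 2 and 1348 and 977 in Cre 1 and 2. Much of each sum came from Cd14, at 539 and 408 in Vec and 560 and 352 in Cre. It was the tested marker with a negative difference (-0.06 ± 0.28), with 0.08 within number 1 and -0.20 within number 2. Ptprc, which marks all leukocytes, read between 2.9 and 11.9, and Itgam and Aif1 at most 6.5, with no marker at exactly 0 on any array. Of the 4 tested markers 3 had a positive difference, with a median of 0.30, led by Laptm5 (0.46 ± 0.30) and Csf1r (0.36 ± 0.30), which were higher in Cre within both numbers. The 6 endothelial markers, none of them tested, summed to 148 and 82 in Vec and 338 and 158 in Cre. Within number 1 both sums were higher in Cre, and within number 2 the endothelial sum was higher and the leukocyte sum nearly equal. The low endothelial signals were all under the level filter, and the part of such cells in the differences of the sensor genes was not tested.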

How the data were processed

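Total RNA of 2 Vec and 2 Cre samples was hybridized to 1-colour Affymetrix arrays. The authors deposited an intensity per probe set made with MAS5, per the submitters' processing notes (version not given in the sources used here), on a linear scale with a trimmed mean of 500 on every array. Of 45101 probe sets 64 controls were left out. Intensities were quantile-normalized, 16 was added, and log2 values were tested with limma 3.58.1 in R 4.3.3 (lmFit, eBayes with an intensity trend) over the 22519 probe sets with a mean log2 signal at or above the 50th percentile, with Benjamini-Hochberg adjustment over all of them and a threshold of 0.05. The procedure was run on simulated data with independent errors. Recovery was required only for large changes in the model with the block, not for changes of the size described here. Gene names came from the platform annotation: 34945 probe sets had 1 symbol, 932 several and 9160 none, and 34741 were matched by gene ID to RefSeq (GRCm38.p6).

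The replicate numbers were taken to pair the arrays, since Xist read 11049 and 9810 in Vec 1 and Cre 1 and 41.8 and 58 in Vec 2 and Cre 2. The Y-linked Eif2s3y, on its brightest probe set, read 141 and 228 in Vec 1 and Cre 1 and 1127 and 1265 in Vec 2 and Cre 2. Number 1 thus had the female pattern of these 2 transcripts and number 2 the male one, in both groups. Arrays with the same number deviated together from the means of their groups (correlation 0.60 across probe sets). The model without the replicate number was the main one and the model with it as a block the alternative.

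The named genes were all 10 members, the targeted gene, from each pathway list up to 4 genes called with or without the block or else the 2 with the smallest p, and the 8 most similar profiles. Other list genes and markers were named after their values were seen. The members and lists were chosen with earlier results of these data known. Scan or hybridization batches were not given in the sources used here.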

Additional observations from a re-analysis of the deposited data

How the results depend on the processing

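Without the replicate block 2 probe sets of the whole table passed the limma threshold. That count was 1 with a pseudocount of 1, 0 with no filter, 1 with a filter at the 75th percentile, 16 with median centring, 0 without the intensity trend, and 5 to 29 when 1 array was left out. With the replicate block it was 708. Alternatives that combine the block with another choice were added after seeing the data: 980 with the scaling as deposited, 666 with median centring, 709 with a pseudocount of 1, 581 with a pseudocount of 64, 84 with no filter, 60 without the trend, 618 with robust eBayes and 679 with a filter on the linear mean. In every alternative without the block 0 of the member genes passed (limma; 5 had an unadjusted p below 0.05 in the model of the report). With the block 5 passed, also with the deposited scaling, median centring, a pseudocount of 1, robust eBayes and the linear filter, 4 with a pseudocount of 64, and 0 with no filter or no trend. The median difference of the member genes, 0.96, was 0.82 with a pseudocount of 64, with or without the block, 0.81 with no filter, with or without the block, 0.59 with the 75th percentile filter, which left 2 genes, 0.74 when each gene's probe sets were averaged by their median, and 0.71 to 1.01 when 1 array was left out. Without the block 4 member genes moved by over 1.5 times when 1 array was left out. Mavs (0.24) turned to -0.13 without Cre replicate 1, and was 0.05 without Vec replicate 1, 0.43 without Vec replicate 2 and 0.60 without Cre replicate 2. Eif2ak2 (0.30) was 0.14 without Vec replicate 1, 0.20 without Cre replicate 1 and 0.45 without Vec replicate 2. Tlr3 (0.69) was 0.37 without Vec replicate 2, and Dtx3l (0.99) was 0.64 without Cre replicate 1. Median centring moved the median of all genes from 0.0073 to -0.0936, and the members' median relative to it was 0.96 under all 3 scalings. With 2 arrays a group, differences of dim genes such as Dhx58 and Zbp1 were not detectable.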
